A study of Homo sapiens with 4 samples.

Results

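The 39 genes described here belong to the integrated stress response and to the amino acid synthesis and transport that this response controls. They were taken by symbol from a list, and each matched 1 row among the 61541 genes of the counts table. The cells were MHCC97H, a human hepatocellular carcinoma line with high metastatic potential, carrying either a control hairpin (shCon, n = 2 libraries) or a short hairpin RNA against UBXN1 (shUBXN1, n = 2 libraries), a ubiquitin-binding cofactor of the VCP segregase. The labels speak of transfected cells and the study's methods of lentiviral pLKO.1 hairpins, the methods name the control hairpin shRFP, and neither says which UBXN1 hairpin was sequenced. No stress, starvation or drug is given for these libraries, so the comparison asks how the stress response genes stood in knockdown against control cells under the culture conditions used. Nothing says that the libraries came from separate cultures, and the p-values measure only the spread between them.

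Cells slow translation when amino acids run short, unfolded proteins accumulate, heme is lacking or mitochondria falter. Separate kinases sense these conditions and phosphorylate eIF2, the factor that brings the initiator tRNA to the ribosome, which lowers protein synthesis and at the same time favors translation of the ATF4 mRNA. ATF4 is a transcription factor that pairs with C/EBP proteins and drives genes for serine and asparagine synthesis, amino acid import and tRNA charging, together with feedback regulators. Because ATF4 is controlled largely at translation and eIF2 by phosphorylation, neither step was measured by these RNA libraries.

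The 4 libraries held between 23373700 and 27380508 expected counts, the authors' estimated read numbers per gene. UBXN1 counts were 1788 and 1817 in control and 416 and 433 in knockdown libraries, a log2 fold change of -2.03 (SE 0.10), so that 24.5% of the control level was left. Mitochondrially encoded genes took 5.28% and 5.59% of the counts in shCon and 7.43% and 8.27% in shUBXN1, and the part of this difference in the results was not tested. Of 9 hepatocyte and liver tumor markers, 7 reached 1 TPM (transcripts scaled to gene length and library size) in every library. The summed level of the 9 was 5394 and 5444 TPM in shCon against 4637 and 5053 TPM in shUBXN1. Most of the sum came from KRT8 and KRT18, which moved in opposite directions. KRT8 read 4047 and 4059 TPM in shCon and 2993 and 3239 TPM in shUBXN1, and KRT18 read 1283 and 1320 TPM against 1595 and 1767 TPM. Albumin (ALB) was low in both groups, at 16.0 and 14.8 TPM in shCon and 3.99 and 4.21 TPM in shUBXN1. Fibroblast markers summed to 25.1 and 24.5 TPM in shCon and 12.6 and 13.6 TPM in shUBXN1, mostly from LUM, and endothelial markers to 15.2 and 15.2 TPM against 31.9 and 32.1 TPM, from PECAM1 and KDR, so that both sums moved with the knockdown. Leukocyte markers lay between 83.5 and 103 TPM, nearly all from CD68, while CD3E was at 0 throughout. The part of these marker levels in the results was not tested. In bulk RNA, fewer cells of a kind and less RNA per cell cannot be told apart.

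Genes were compared with edgeR's quasi-likelihood test on all 16863 genes with enough counts, and calls were made where the adjusted p (Benjamini-Hochberg) was under 0.05. Of the 39 genes, 37 were tested, and 21 of these were called lower, 6 rose and 10 did not pass the threshold. The 21 include ASNS, whose fall was not seen once the counts of an overlapping gene were added. The knockdown changed much of the transcriptome: 56.2% of all genes tested were called, 28% higher and 28.2% lower. Among the listed genes the called share was 73.0%, with 56.8% lower and 16.2% higher. Most of the list was well expressed. A total of 34 genes had a mean of 10 CPM or more (counts scaled to library size by the TMM method), and 66.5% of all genes at that level were called, 28% higher and 38.5% lower. Of the 34, 19 (55.9%) were lower and 6 (17.6%) higher. The 37 genes had a median of -0.25 on the log2 scale, beside 0.02 over all genes tested. At a fold change of 2 with an unadjusted p under 0.05, the thresholds of the study, 9 of the 37 (24.3%) were lower and 0 were higher. The 9 again include ASNS. With DESeq2 and limma, too, 0 were higher. Over all genes 6.09% were lower and 11.8% higher, and among those at 10 CPM or more 4.81% were lower and 4.61% higher.

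**Figure D1:**
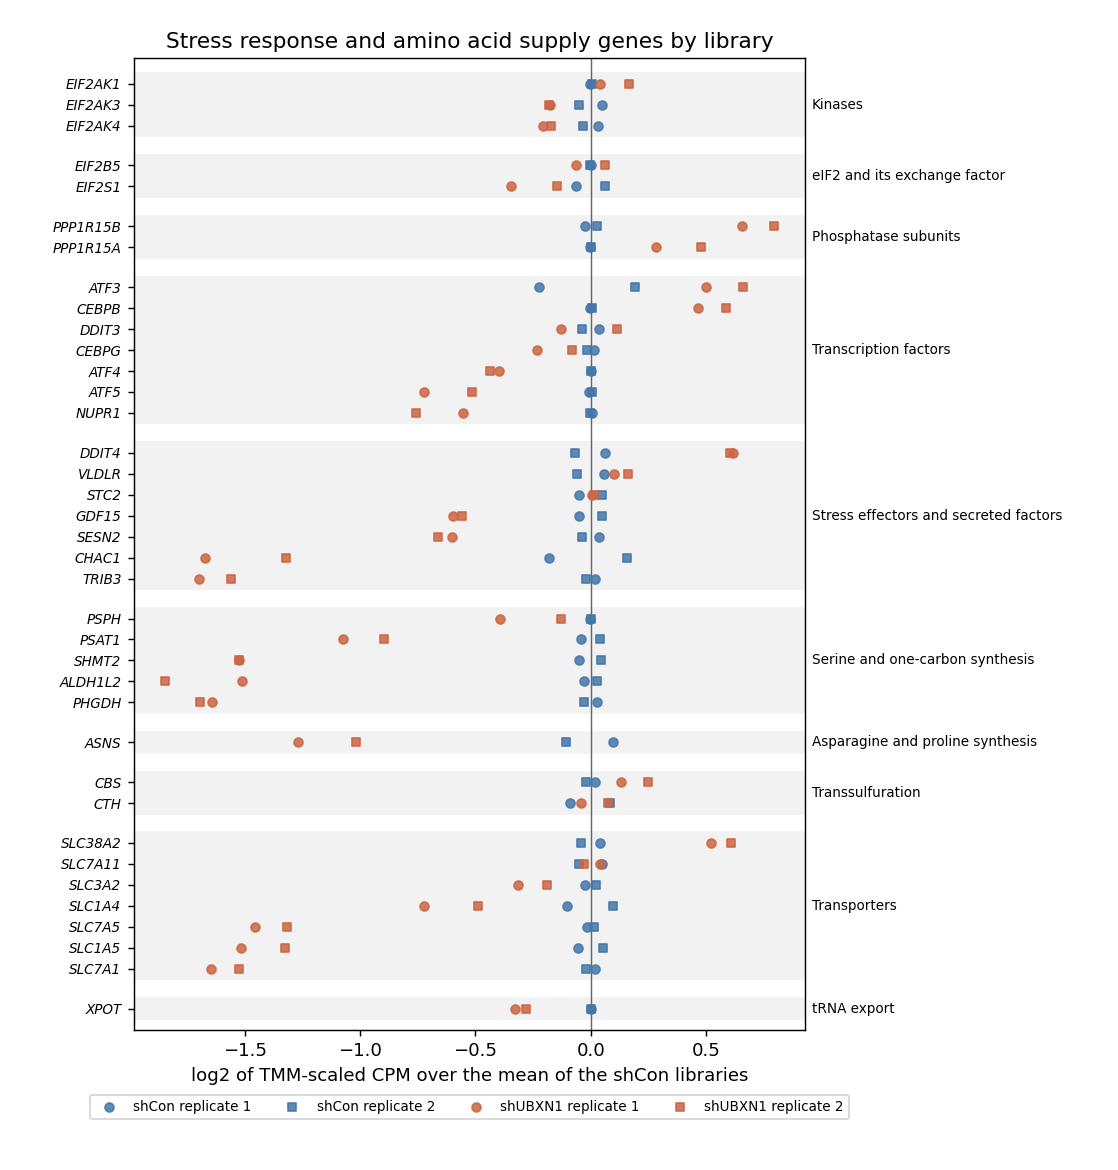
Level of each of the 37 tested genes in each library, as the log2 of its TMM-scaled CPM over the mean of both shCon libraries (horizontal axis), grouped by role. Circles and squares are replicates 1 and 2; the control points (blue) lie near 0, while the shUBXN1 points (orange) lie to the left for most serine synthesis and transporter genes and to the right for both phosphatase subunits, ATF3, CEBPB, DDIT4 and SLC38A2.

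The roles differed in how their members moved. All 5 tested genes of serine and one-carbon synthesis fell, with a median log2 fold change of -1.52, and 5 of 7 transporters fell, with a median of -0.60. The 7 transcription factors were divided, with 3 lower (42.9%), 2 higher (28.6%) and 2 neither and a median of -0.15. Those shares lay near the 38.5% lower and 28% higher among all genes at 10 CPM or more. Over all genes tested, 28.2% were lower and 28% higher. Of the 3 listed kinases, 1 was called lower (33.3%), also near those shares. Both regulatory subunits of the eIF2 phosphatase rose. These counts are descriptions, since the roles were not tested against each other.

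ATF4 and C/EBP proteins bind DNA together at composite sites, and the sequence TGATGNAA, in which N is any base, is the usual core of such a site. RefSeq promoter windows of GRCh38.p14, reaching from 250 bases before to 50 after each annotated start, were available for 32 of the 39 genes, and 9 of the 32 (28.1%) held this sequence on either strand. The same sequence stood in windows of 4.46% of the 27305 genes with a window. Because the listed genes were chosen as members of this response, these shares are descriptions and not a test. The 9 are shown because the genes that changed most include several of them. They are printed from 5′ to 3′ on the strand that carries the match, with the 8 matching bases in capitals.
ASNS, chr7:97872459-97872486, minus strand: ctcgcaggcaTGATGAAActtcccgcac
ATF3, chr1:212565206-212565233, plus strand: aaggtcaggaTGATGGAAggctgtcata
CEBPG, chr19:33374061-33374088, plus strand: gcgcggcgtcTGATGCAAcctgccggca
CHAC1, chr15:40953252-40953279, minus strand: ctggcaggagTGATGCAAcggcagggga
PPP1R15B, chr1:204412027-204412054, minus strand: ccgccccggcTGATGCAAcctcacgctg
SLC1A4, chr2:64989382-64989409, minus strand: cggctggagaTGATGCAAacgggagccg
SLC1A5, chr19:46784894-46784921, minus strand: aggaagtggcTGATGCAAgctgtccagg
SLC3A2, chr11:62881726-62881748, minus strand: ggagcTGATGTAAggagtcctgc
SLC7A1, chr13:29595664-29595691, minus strand: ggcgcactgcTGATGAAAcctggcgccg

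The 9 genes with a match did not move as one. PPP1R15B and ATF3 rose, CEBPG did not pass the threshold, and the remaining 6 were called lower, including ASNS, whose fall is not seen once an overlapping gene is added, for a median log2 fold change of -0.60 and a range of -1.59 to 0.73. The 22 tested genes whose window held no match had a median of -0.18, with 11 lower, 4 higher and 7 neither. The 6 tested genes without a window had a median of -0.45, with 4 lower, 0 higher and 2 neither. Among all genes at 10 CPM or more, 38.5% were lower and 28% higher, beside 28.2% and 28% over all genes tested. These groups were not tested against each other. PHGDH, SLC7A5 and TRIB3, all strongly lower, had no match in these windows, and no window was at hand for SHMT2 or ALDH1L2. A match describes the letters of the window and not binding, which was not measured.

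The mRNAs of the 3 listed kinases lay within 0.19 of their control level on the log2 scale. EIF2AK2, an eIF2 kinase outside the list, fell from 118 and 112 CPM to 84.5 and 85.3 CPM. Its log2 fold change was -0.44 (SE 0.07, edgeR adjusted p = 1.4e-04), called in all 17 alternatives. EIF2AK4, encoding GCN2, which senses uncharged tRNA, read 71.5 and 68.4 CPM in shCon and 60.7 and 62.1 CPM in shUBXN1. The groups did not overlap, and the log2 fold change of -0.19 (SE 0.07) passed the threshold (edgeR adjusted p = 0.043), but the call was lost in 9 of 17 alternative settings, among them the fits without either shCon library (-0.16 and -0.24) and without shUBXN1 replicate 1 (-0.18). EIF2AK3, encoding PERK, which senses unfolded proteins in the endoplasmic reticulum, stood at 33.1 and 30.9 CPM against 28.3 and 28.2 CPM, a log2 fold change of -0.18 that did not pass (95% interval -0.37 to 0.01). EIF2AK1, encoding HRI, the heme-regulated kinase that also relays mitochondrial stress, had 176 and 177 CPM in shCon and 181 and 198 CPM in shUBXN1, a log2 fold change of 0.11 (95% interval -0.06 to 0.27). EIF2AK1 passed in 4 of 17 alternatives, at 0.19 under total count scaling, 0.16 on both log2 TPM scales and 0.17 without shUBXN1 replicate 1, and it was 0.025 without shUBXN1 replicate 2. AIMP2, on the opposite strand, shares 9.69% of the EIF2AK1 exon bases, and whether reads were counted by strand is not given in the sources used here.

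EIF2S1, the eIF2 subunit that the kinases phosphorylate, was measured at 103 and 113 CPM in shCon and at 85.01 and 97.6 CPM in shUBXN1. The groups stayed apart by a narrow margin, and the log2 fold change of -0.24 (SE 0.08, edgeR adjusted p = 0.023) fell below the threshold in 6 of 17 alternatives, with -0.19 without shCon replicate 2 and -0.15 without shUBXN1 replicate 1. EIF2B5, the catalytic subunit of the factor that recharges eIF2 with GTP, lay between 53.4 and 58.3 CPM in all libraries. Its log2 fold change of 0.00 had a 95% interval of -0.17 to 0.17, and its sign changed between settings.

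Both genes for the subunits that direct protein phosphatase 1 to eIF2 and so end the response were higher in knockdown cells. PPP1R15B, the subunit made in unstressed cells, read 99.7 and 103 CPM in shCon and 160.1 and 176 CPM in shUBXN1. That was a log2 fold change of 0.73 (SE 0.08), or 1.66-fold (edgeR adjusted p = 1.9e-06), the largest rise on the list. PPP1R15A, encoding the stress-induced subunit GADD34, read 66.4 and 66.5 CPM against 80.9 and 92.5 CPM, a log2 fold change of 0.38 (SE 0.08, edgeR adjusted p = 0.0010). For both, each knockdown library lay above each control library in CPM, and the calls held in all 17 alternatives. On the length-scaled TPM scale the ratio of PPP1R15B to PPP1R15A was 0.683 ± 0.017 in control and 0.868 ± 0.023 in knockdown libraries (SD, n = 2).

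ATF4, the central transcription factor of the response, fell. It read 196.6 and 196.6 CPM in shCon and 149 and 145 CPM in shUBXN1, with a wide gap between groups and little spread within them. The log2 fold change was -0.42 (SE 0.07, edgeR adjusted p = 1.9e-04), which left 74.9% of the control level. ATF4 nevertheless remained among the most abundant mRNAs on the list, at 302 ± 6.3 TPM in control and 236 ± 17 TPM in knockdown libraries (SD, n = 2). Its processed pseudogenes held at most 10 counts in any library.

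The factors that act with ATF4 or follow it went in opposite directions. ATF5, a related factor that protects against mitochondrial stress, had 71.6 and 72.4 CPM in shCon and 43.6 and 50.4 CPM in shUBXN1, a log2 fold change of -0.62 (SE 0.08, edgeR adjusted p = 2.3e-05). NUP62 overlaps 19.5% of the ATF5 exon bases on the opposite strand and did not pass the test itself (log2 fold change 0.04). IL4I1, also on the opposite strand, shares 2.59% and had 1001 and 842 counts in control and 526 and 733 counts in knockdown libraries, and its part in the ATF5 value was not tested. NUPR1, a small chromatin-associated stress regulator, read 49.95 and 49.7 CPM against 33.9 and 29.5 CPM, a log2 fold change of -0.65 (SE 0.09, edgeR adjusted p = 2.3e-05). For ATF5 and NUPR1 both knockdown libraries lay below both control libraries.

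ATF3, a stress-induced factor of the same family, read 13.0 and 17.3 CPM in shCon and 21.4 and 23.9 CPM in shUBXN1. The control libraries differed from each other more than the knockdown libraries did, but the groups did not overlap, and the log2 fold change was 0.59 (SE 0.13, edgeR adjusted p = 0.0018), or 0.39 without shCon replicate 1 (edgeR adjusted p = 0.027). CEBPB, a C/EBP factor that dimerizes with ATF4 and also acts in inflammation, read 60.3 and 60.7 CPM against 83.5 and 91.0 CPM, a rise of 0.53 on the log2 scale (SE 0.08, edgeR adjusted p = 4.0e-05). With the trend over GC content removed the CEBPB rise was 0.29, still called.

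DDIT3, which encodes CHOP, the factor linked to death after prolonged stress, did not pass the threshold. Its libraries overlapped, at 39.1 and 37.1 CPM in shCon and 34.8 and 41.2 CPM in shUBXN1, and the log2 fold change of -0.00 had a 95% interval of -0.21 to 0.20. The sign differed between settings, from -0.14 to 0.11. MARS1, which lies on the opposite strand and shares 27.2% of the DDIT3 exon bases, fell by 0.72 on the log2 scale (edgeR adjusted p = 1.22e-06), and its part in the DDIT3 value was not tested. CEBPG, the usual C/EBP partner of ATF4, read 75.8 and 74.4 CPM against 64.0 and 71.0 CPM, a log2 fold change of -0.15 (95% interval -0.32 to 0.01) that passed only when shUBXN1 replicate 2 was left out (-0.24, edgeR adjusted p = 0.00727).

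**Figure D2:**
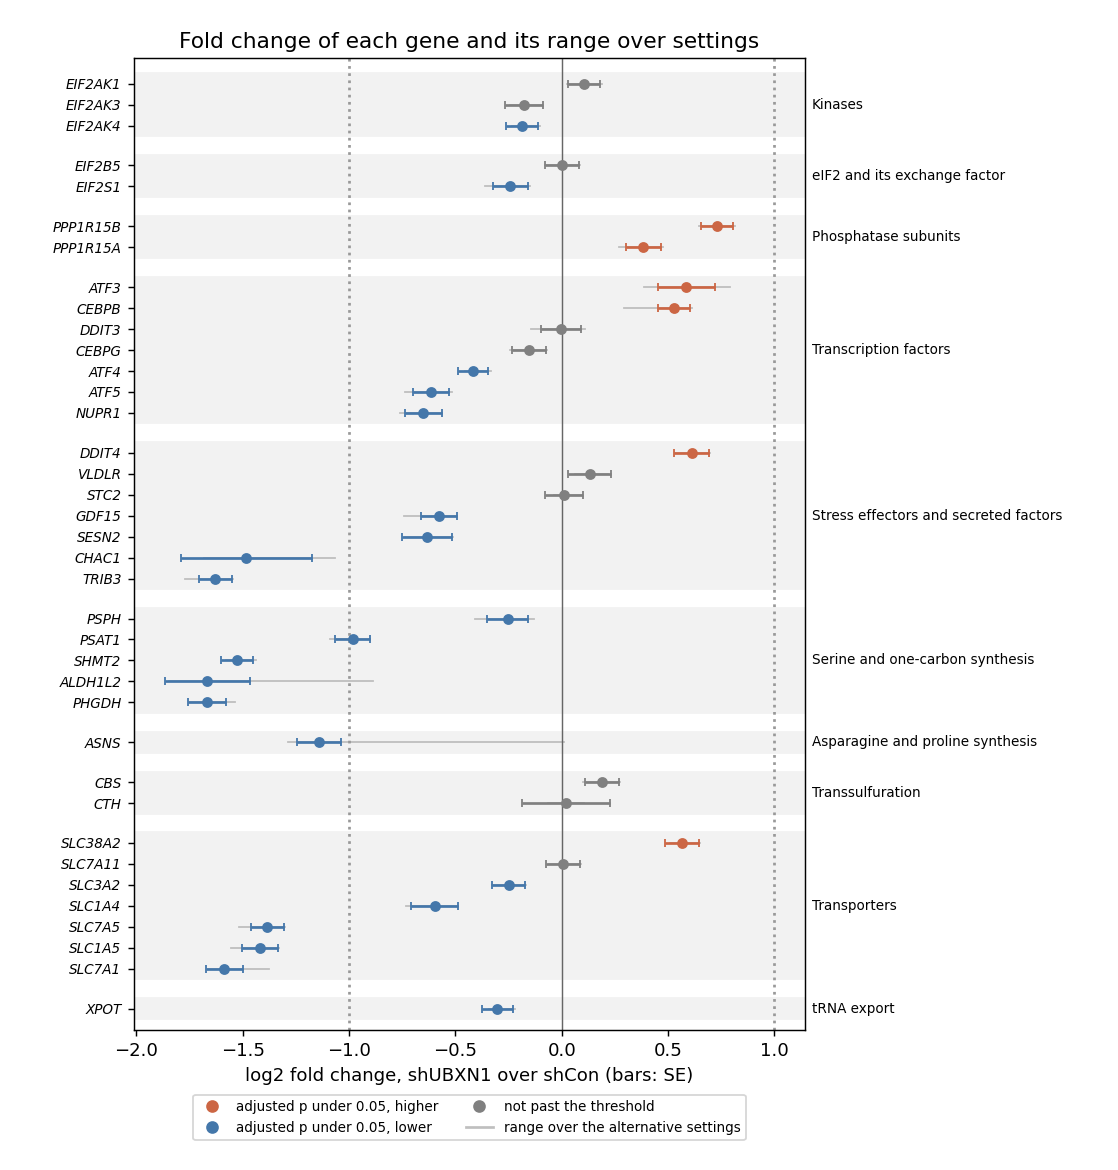
Log2 fold change of shUBXN1 over shCon for the 37 tested genes, by role, with SE as bars. Thin gray lines give the range over the alternative settings and dotted lines mark a fold change of 2. The values run from -1.67 (PHGDH, ALDH1L2) to 0.73 (PPP1R15B), and the gray line of ASNS reaches 0.01, where its counts were summed with those of an overlapping gene.

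TRIB3 and CHAC1 fell most among the effectors. TRIB3, a pseudokinase that binds ATF4 and restrains it, read 163 and 159 CPM in shCon and 49.6 and 54.7 CPM in shUBXN1. The knockdown libraries held 32.3% of the control level, a log2 fold change of -1.63 (SE 0.08, edgeR adjusted p = 1.1e-09). The TPM ratio of TRIB3 to ATF4 was 0.699 ± 0.012 in control and 0.302 ± 0.027 in knockdown libraries (SD, n = 2). CHAC1, an enzyme that degrades glutathione, was scarce, with 88 and 98 counts in the control libraries against 29 and 35, and fell by 1.48 on the log2 scale (SE 0.31, edgeR adjusted p = 9.1e-04).

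A pair of genes that both restrain mTORC1, the kinase complex that couples nutrients to growth, moved apart. SESN2, a leucine-binding sestrin, read 17.6 and 16.7 CPM in shCon and 11.3 and 10.8 CPM in shUBXN1, a log2 fold change of -0.63 (SE 0.12, edgeR adjusted p = 4.1e-04). DDIT4, also called REDD1, read 35.1 and 32.2 CPM against 51.6 and 51.1 CPM and rose by 0.61 (SE 0.08, edgeR adjusted p = 2.2e-05). All 4 libraries kept to their group in both genes, and the TPM ratio of DDIT4 to SESN2 went from 3.89 ± 0.10 (SD, n = 2) to 9.22 ± 0.20 (SD, n = 2).

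Of the secreted and surface products, GDF15 fell, while STC2 and VLDLR did not pass the threshold. GDF15, a circulating stress hormone, read 44.6 and 47.8 CPM in shCon and 30.5 and 31.4 CPM in shUBXN1, and fell by 0.58 on the log2 scale (SE 0.08, edgeR adjusted p = 4.3e-05). STC2, a secreted glycoprotein, lay between 29.0 and 31.1 CPM in every library, with a log2 fold change of 0.01 (95% interval -0.18 to 0.20). VLDLR, a lipoprotein receptor, read 21.2 and 19.6 CPM against 21.9 and 22.8 CPM, a log2 fold change of 0.13 (95% interval -0.09 to 0.35) that did not pass.

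Serine is made from a glycolytic intermediate in 3 steps, and all their genes were called lower. PHGDH, the dehydrogenase of the first step, read 49.9 and 47.9 CPM in shCon and 15.7 and 15.1 CPM in shUBXN1. Both knockdown libraries held close to 31.5% of the control level, a log2 fold change of -1.67 (SE 0.09, edgeR adjusted p = 3.2e-09), which with ALDH1L2 was the largest fall on the list. PSAT1, the aminotransferase of the second step, read 117 and 124 CPM against 57.3 and 64.8 CPM, a log2 fold change of -0.98 (SE 0.08, edgeR adjusted p = 1.7e-07). PSPH, the phosphatase that ends the pathway, read 39.2 and 39.4 CPM against 29.9 and 35.9 CPM, a much smaller log2 fold change of -0.25 (SE 0.10, edgeR adjusted p = 0.034).

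The PSPH call was fragile. It was lost in 8 of 17 alternatives, among them the fits without either shCon library (-0.26 and -0.27) and without shUBXN1 replicate 1 (-0.13). The pseudogene PSPHP1 held 136 and 115 counts in the control libraries and 154 and 164 in the knockdown libraries, and the sum of both genes changed by -0.16 on the log2 scale (edgeR adjusted p = 0.14). PSPHP1 was picked by its symbol and was not found by the sequence search for near-identical copies. Whether gene and pseudogene share reads was not tested, so the size of the PSPH change is uncertain.

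SHMT2, the mitochondrial enzyme that passes a carbon from serine to folate, also fell. Its level was 194 and 207 CPM in shCon and 69.6 and 69.6 CPM in shUBXN1, which left 34.8% (log2 fold change -1.52, SE 0.08, edgeR adjusted p = 1.4e-09). ALDH1L2, which oxidizes formyl-folate in mitochondria, was a low gene, with 229 and 210 control counts against 76 and 57, and fell by 1.67 on the log2 scale (SE 0.20, edgeR adjusted p = 7.2e-06). On the log2(TPM + 1) scale, where a pseudocount of 1 damps low genes, the ALDH1L2 value was -0.89. The last listed enzyme of this route had almost no deposited counts. MTHFD2, a mitochondrial folate dehydrogenase that many tumor lines express, had 2 and 0 counts in control and 4 and 4 counts in knockdown libraries, too few to test. SLC4A5, on the opposite strand, matches 30.1% of its transcript with 100% identity. SLC4A5 held 0.01 and 2.09 counts in control and 17.5 and 10.3 counts in knockdown libraries. Whether the deposited counts miss reads of MTHFD2 was not tested.

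The related MTHFD2L was read at 199.95 and 203 counts in control and 136 and 154 counts in knockdown libraries, a log2 fold change of -0.42 (SE 0.17) that did not pass (edgeR adjusted p = 0.056). The cytosolic counterparts SHMT1 (-0.04) and MTHFD1 (-0.02) also stayed under the threshold. MTHFD1L, a mitochondrial enzyme of the same route, fell by 0.43 on the log2 scale (SE 0.11, edgeR adjusted p = 0.0034).

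ASNS, which makes asparagine from aspartate and glutamine, is a classical ATF4 target, and its deposited values depend on how reads were shared with another gene. Alone, ASNS had 1476 and 1130 counts in the control libraries and 531 and 598 in the knockdown libraries, a log2 fold change of -1.14 (SE 0.10, edgeR adjusted p = 4.2e-07). A long noncoding gene, ENSG00000284707, is annotated on the same strand (GENCODE on GRCh38, chr7:97851688-97972985), spans nearly all of ASNS (chr7:97851677-97872542) and shares 49.3% of the bases in its exons, all transcripts pooled. Its counts were 1215 and 1152 in control and 1842 and 1836 in knockdown libraries, a rise of 0.69 (SE 0.08, edgeR adjusted p = 3.7e-06).

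Summed over both genes the locus had 100.9 and 97.1 CPM in shCon and 95.9 and 104 CPM in shUBXN1. The groups overlapped, and the log2 fold change of the sum was 0.01 (SE 0.07, edgeR adjusted p = 0.90). The noncoding gene took 47.6% of the locus in shCon and 76.5% in shUBXN1. Because 99.5% of the canonical ASNS transcript is contained in this gene with 100% identity, a fall of ASNS is not established by these counts. The comparison with the sum was chosen after the values were seen.

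**Figure D3:**
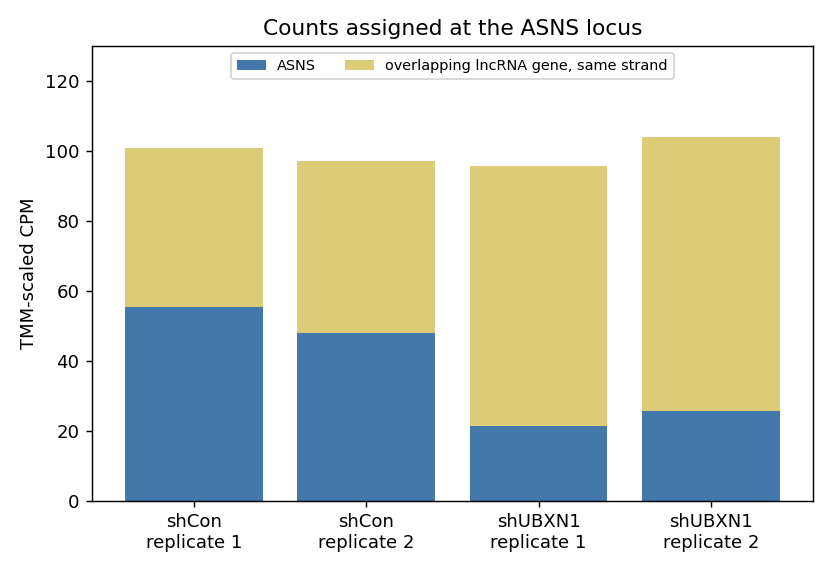
TMM-scaled CPM at the ASNS locus in each of the 4 libraries, as stacked bars for ASNS (blue) and the overlapping noncoding gene on the same strand (yellow). The blue part shrinks from 55.3 and 48.1 CPM to 21.4 and 25.5 CPM while the full height stays between 95.9 and 104 CPM.

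PYCR1, the mitochondrial reductase that ends proline synthesis, had almost no deposited counts and was not tested. It held 2.07 and 1.10 expected counts in shCon and 4.52 and 3.80 in shUBXN1. MYADML2, on the same strand, shares 14.1% of the PYCR1 exon bases. MYADML2 held 8 and 5 counts in control and 28 and 15.6 counts in knockdown libraries. Whether the deposited counts miss reads of PYCR1 was not tested. PYCR3, a cytosolic reductase of the same step, fell by 1.35 on the log2 scale (SE 0.10, edgeR adjusted p = 5.46e-08), from 43.0 and 47.7 CPM to 16.7 and 18.9 CPM.

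The transsulfuration enzymes, which turn homocysteine into cysteine, were not called. CBS, the first enzyme, read 44.1 and 43.0 CPM in shCon and 47.7 and 51.7 CPM in shUBXN1, a log2 fold change of 0.19 (95% interval 0.02 to 0.36, edgeR adjusted p = 0.056). It passed as higher in 6 of 17 alternatives, including the fit without shUBXN1 replicate 1 (0.24), while it was 0.12 without shUBXN1 replicate 2 and 0.10 with the GC trend removed, and the annotation holds another copy of CBS with 99.96% identity that took between 17.0 and 49.8 counts per library. CTH, the second enzyme, lay between 4.53 and 5.10 CPM in all libraries, a log2 fold change of 0.02 with a wide 95% interval of -0.42 to 0.46.

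Of the 7 amino acid transporters, 3 fell by more than a fold change of 2. SLC7A5, which exchanges large neutral amino acids such as leucine, read 461 and 471 CPM in shCon and 169.9 and 187 CPM in shUBXN1, leaving 38.3% (log2 fold change -1.38, SE 0.08, edgeR adjusted p = 5.0e-09). SLC7A1, the main carrier of arginine and lysine, read 59.1 and 57.4 CPM against 18.6 and 20.2 CPM, leaving 33.3% (log2 fold change -1.59, SE 0.09, edgeR adjusted p = 3.5e-09). SLC1A5, the carrier for glutamine and other neutral amino acids, read 374 and 404 CPM against 136 and 155 CPM, leaving 37.4% (log2 fold change -1.42, SE 0.08, edgeR adjusted p = 7.6e-09). In each of the 3 the lowest control library was more than 2-fold above the highest knockdown library.

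SLC1A4, the close relative of SLC1A5 that carries alanine, serine and cysteine, fell less, from 28.7 and 32.9 CPM to 18.7 and 21.97 CPM (log2 fold change -0.60, SE 0.11, edgeR adjusted p = 3.3e-04). SLC3A2, the heavy chain that both SLC7A5 and SLC7A11 need to reach the membrane, fell from 364 and 377 CPM to 298 and 325 CPM (log2 fold change -0.25, SE 0.08, edgeR adjusted p = 0.013). This last call was lost without shCon replicate 1 (-0.28, edgeR adjusted p = 0.0539) and without shCon replicate 2 (-0.24, edgeR adjusted p = 0.23).

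Of the remaining transporters, SLC38A2 rose and SLC7A11 did not pass the threshold. SLC38A2, a sodium-coupled carrier of small neutral amino acids that adapts to starvation, read 429.7 and 405 CPM in shCon and 599 and 636 CPM in shUBXN1, a log2 fold change of 0.57 (SE 0.08, edgeR adjusted p = 2.9e-05). SLC7A11, which imports cystine in exchange for glutamate, read 534 and 498 CPM against 530.3 and 506 CPM. Both knockdown libraries lay within the range of the control libraries, with a log2 fold change of 0.01 and a 95% interval of -0.16 to 0.17.

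On the length-scaled scale these changes altered the order of the carriers. SLC1A5 stood at 271 ± 9.1 TPM and SLC38A2 at 175 ± 11 TPM in shCon (SD, n = 2), whereas in shUBXN1 SLC38A2 stood at 269 ± 2.8 TPM and SLC1A5 at 106 ± 4.2 TPM (SD, n = 2). Their ratio, SLC38A2 over SLC1A5, was 0.646 ± 0.062 in shCon and 2.55 ± 0.13 in shUBXN1 (SD, n = 2). SLC7A11 over SLC7A5, the light chains that share SLC3A2, was 0.523 ± 0.033 in shCon and 1.38 ± 0.14 in shUBXN1 (SD, n = 2). SLC7A5 over SLC3A2 went from 0.644 ± 0.006 to 0.294 ± 0.002 (SD, n = 2). With 2 libraries a group, an exact permutation test of such a ratio cannot give a p below 0.333, so the ratios are given as values.

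**Figure D4:**
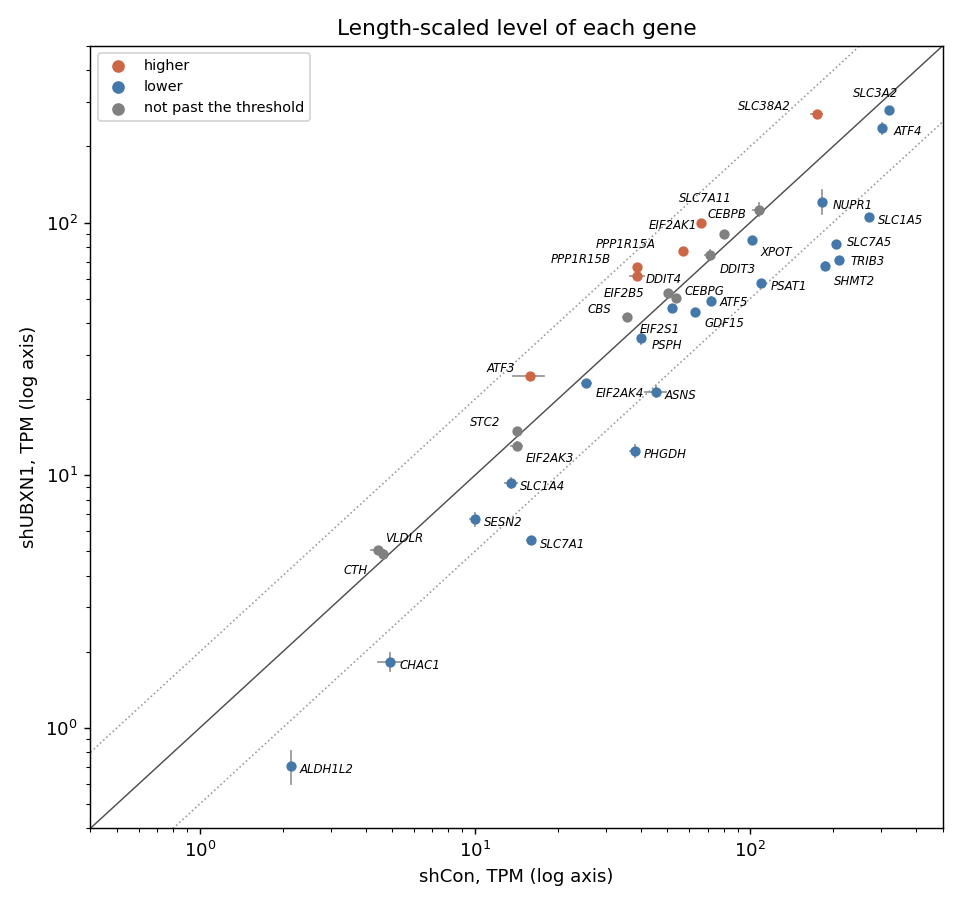
Mean TPM of each tested gene in shCon (horizontal, log axis) and shUBXN1 (vertical, log axis), with lines spanning both libraries of a group. The solid line marks equal levels and the dotted lines a fold change of 2; SLC1A5, SLC7A5, TRIB3, SHMT2, PHGDH, SLC7A1, ASNS, CHAC1 and ALDH1L2 lie below the lower dotted line, and no gene lies above the upper one.

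The most abundant listed mRNAs per length in shCon were SLC3A2 (319 ± 1.1 TPM), ATF4 (302 ± 6.3 TPM), SLC1A5 (271 ± 9.1 TPM), TRIB3 (211 ± 8.2 TPM) and SLC7A5 (205 ± 1.2 TPM, SD, n = 2 for each). TRIB3 and SLC7A5 did not differ beyond their spread. In shUBXN1, SLC3A2 (279 ± 2.7 TPM), SLC38A2 (269 ± 2.8 TPM) and ATF4 (236 ± 17 TPM) led.

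XPOT, the exportin that carries tRNA out of the nucleus, read 321.4 and 321.4 CPM in shCon and 256 and 265 CPM in shUBXN1. The control libraries were nearly identical and both knockdown libraries lay below them, a log2 fold change of -0.30 (SE 0.07, edgeR adjusted p = 0.0026). The call was lost without shCon replicate 2 (-0.32, edgeR adjusted p = 0.087).

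Genes of the same pathways outside the list were counted in 3 further groups. Of 20 other genes of the eIF2 machinery, 14 fell (70%), 2 rose (10%) and 4 did not pass, with a median log2 fold change of -0.33. Over all genes tested 28.2% were lower and 28% higher, and among those at 10 CPM or more 38.5% and 28%. EIF2D, a noncanonical initiation factor, fell by 1.07 on the log2 scale (SE 0.10, edgeR adjusted p = 3.85e-07). EIF2S2, the beta subunit of eIF2, fell by 0.94 (SE 0.07, edgeR adjusted p = 1.03e-07), from 302 and 305 CPM to 154 and 162 CPM. The rises were EIF2B4, a regulatory subunit of the exchange factor, by 0.65 (SE 0.08, edgeR adjusted p = 9.22e-06) and PPP1CB, a catalytic subunit of protein phosphatase 1, by 0.34 (SE 0.08, edgeR adjusted p = 0.0020).

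Of 26 other targets assigned to ATF4 or CHOP, 25 were tested, and they were evenly divided. There were 10 higher and 10 lower (40% each) and 5 neither, with a median of -0.10. Over all genes tested 28% were higher and 28.2% lower, and among those at 10 CPM or more 28% and 38.5%. FGF21, a liver hormone of this response, had too few counts to test. SESN3, a sestrin like SESN2, rose from 0.56 and 0.17 CPM to 4.64 and 3.97 CPM (log2 fold change 3.50, SE 0.43, edgeR adjusted p = 8.02e-06). Its control libraries held only 15 and 4 counts and its knockdown libraries 115 and 93, so that it entered the test through the group where it was high, and its value ran from 0.85 to 4.62 over the 16 alternatives in which it was kept. KDM7A, a histone demethylase, rose by 1.58 on the log2 scale (SE 0.12, edgeR adjusted p = 1.1e-07). SLC6A9, a glycine transporter, fell by 1.11 (SE 0.21, edgeR adjusted p = 5.2e-04), and SQSTM1, the selective autophagy receptor p62, fell by 0.86 (SE 0.09, edgeR adjusted p = 2.68e-06), from 2543 and 2676 CPM to 1344 and 1522 CPM.

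Of 27 other genes of amino acid supply, 13 fell (48.1%), 5 rose (18.5%) and 9 did not pass, with a median of -0.37, beside the same shares of 28.2% and 28% over all genes and 38.5% lower among those at 10 CPM or more. SLC7A2, another carrier of arginine and lysine, fell from 14.5 and 11.3 CPM to 1.82 and 1.88 CPM (log2 fold change -2.80, SE 0.20, edgeR adjusted p = 4.19e-08). BCAT1, the cytosolic aminotransferase of branched-chain amino acids, fell by 2.13 (SE 0.21, edgeR adjusted p = 7.87e-07), whereas its mitochondrial counterpart BCAT2 rose by 0.80 (SE 0.08, edgeR adjusted p = 1.07e-06). ASS1, which joins citrulline and aspartate on the way to arginine, rose from 12.6 and 12.1 CPM to 55.8 and 58.3 CPM (log2 fold change 2.21, SE 0.09, edgeR adjusted p = 2.46e-10). Processed pseudogenes of EIF2S2 and ASS1 that could share their reads were not examined. ASL, the next enzyme of that route, fell by 0.92 (SE 0.09, edgeR adjusted p = 8.06e-07).

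**Figure D5:**
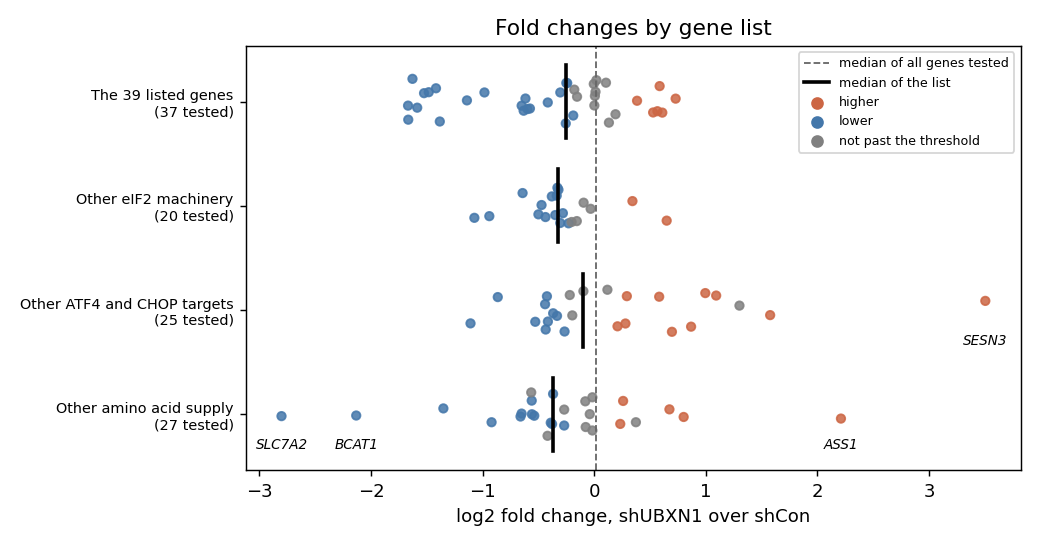
Log2 fold change of shUBXN1 over shCon for the tested genes of each list, 1 point a gene, with vertical scatter for legibility. Black bars are list medians (-0.25, -0.33, -0.10 and -0.37 from top to bottom) and the dashed line is the median of all genes tested (0.02); the targets of ATF4 and CHOP spread to both sides. The point at 3.50 is SESN3, with 15 and 4 counts in the control libraries.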

How the data were processed

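RNA of 4 MHCC97H libraries was sequenced, 2 per group, and groups came from the sample titles. The deposited values are expected counts per gene with a gene length. They were made by the authors, are not normalized, and are exactly whole, with no tolerance, for between 62.4% and 64.6% of genes with counts above 0. The submitters' processing notes name HISAT2 2.0.4, StringTie 1.3.0 and GRCh37, while the study's methods name Hisat2 with GRCh38, TPM and limma. The labels name a VAHTS mRNA kit and the methods a TruSeq kit, and whether strand was used in counting is not given in the sources used here.

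Of 61541 Ensembl IDs, 61369 matched a symbol of GENCODE (GRCh38), and 39 of 39 listed genes were found once. Expected counts were rounded, filtered with filterByExpr, scaled by TMM (factors 0.967 to 1.06) and compared by glmQLFTest after glmQLFit (edgeR 4.0.16, R 4.3.3) with no block. Adjusted p-values are by Benjamini-Hochberg over all 16863 genes tested. CPM are counts scaled to library size with TMM, and TPM use the deposited lengths. The dispersion fit gave a biological coefficient of variation of 0.0711, and the libraries of a group differed by 3.75 (shCon) and 8.34 (shUBXN1) times the counting variance, so none was a repeat deposit. Alternatives used total counts, DESeq2 1.42.0, limma 3.58.1 on voom or log2(TPM + 1 or 0.1) values, other filters, a replicate block, removal of a GC trend, sums of copies and each library left out. The copies summed were genes whose symbol was that of a listed gene followed by P and a number or by L. Near-identical copies were searched separately with blastn 2.17.0 at 95% identity over at least 30% of a transcript. Hits found only by that search were not part of the sums of copies. The protein-coding genes DDIT4L and MTHFD2L were summed by their symbols, though that search did not find them. MTHFD2 held between 0 and 4 counts, so its sum was nearly all MTHFD2L. The code was tested on simulated data.

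The members and lists were chosen with earlier results of these data known. All 39 genes are accounted for. From each further list, the 2 genes called higher and the 2 called lower with the largest fold change are named. EIF2AK2, PYCR3, SHMT1, MTHFD1, MTHFD1L, ASL, IL4I1, MARS1, NUP62 and SLC4A5 were named after their values were seen. They were chosen as relatives, neighbors in a pathway or overlapping genes of named genes.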

Additional observations from a re-analysis of the deposited data

How the results depend on the processing

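Of the 27 calls among the 37 tested genes, 21 kept their direction and their call in all 17 alternatives, 16 planned and 1 added after seeing the data. The other 6 were EIF2AK4, EIF2S1, PSPH, ASNS, SLC3A2 and XPOT, whose values stand beside the genes. Of these, ASNS turned to 0.012 when same-strand overlapping genes were summed, which also moved the median of asparagine and proline synthesis to 0.012 and brought 1 listed gene, PYCR1 summed with MYADML2, past a 2-fold rise. Over all genes, calls at 2-fold numbered 1028 higher and 524 lower with limma on log2(TPM + 1), and 1321 higher with at least 10 counts in every library, beside 1997 and 1027.

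Medians shifted with the scaling, which moved the median of all genes to 0.10 under total counts. Under total counts they were -0.093 for kinases, -0.013 for the other ATF4 and CHOP targets, -0.24 for the other eIF2 machinery, -0.49 for stress effectors and -0.22 for tRNA export. With limma on log2(TPM + 1) they were -0.11, -0.039, -0.26, -0.51 and -0.24 in that order, and -0.91 for serine synthesis. With a pseudocount of 0.1 they were -0.12, -0.039, -0.27, -0.52 and -0.24. With GC trend removed the other ATF4 and CHOP targets had -0.14, stress effectors -0.74 and tRNA export -0.25, and with at least 10 counts in every library the other targets had -0.17. Leaving out each library gave -0.24 to -0.13 for kinases, -0.11 to -0.043 for the other targets, -0.35 to -0.26 for the other machinery, -0.61 to -0.54 for stress effectors and -0.34 to -0.28 for tRNA export.

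Genes near 0 changed sign without passing the threshold. DDIT3 turned to 0.079 under total counts, 0.050 and 0.051 on the log2 TPM scales and 0.023 with at least 10 counts. EIF2B5 turned to -0.00048 with DESeq2 size factors, -0.017 with DESeq2, -0.00044 with limma-voom, -0.0048 with no filter and -0.034 with GC trend removed. DESeq2 gave -0.012 for SLC7A11 and -0.0069 for STC2, and the GC trend -0.014 for STC2. Leaving out each library gave -0.065 to 0.090 for CTH, -0.14 to 0.11 for DDIT3, -0.077 to 0.060 for EIF2B5, -0.059 to 0.057 for SLC7A11 and -0.037 to 0.045 for STC2. The cause was not tested.

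The replicate numbers are not said to pair the libraries. The deviations of same-numbered libraries correlated at 0.064, which cannot show whether cultures were paired. With the replicate block 7 listed genes were higher and 21 lower, CBS joined the higher genes (0.19), and EIF2B5 turned to -0.00016. Having 2 libraries a group limits how well the spread is known, and counts of CHAC1, ALDH1L2 and CTH limit their precision.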
